A study of Mus musculus with 12 samples.

Results

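The miR-297, miR-466, miR-467 and miR-669 families are mouse microRNAs most of which are encoded together in an intron of Sfmbt2. They were chosen by name, as all entries of these 4 families in the deposited small RNA count tables, and numbered 61 of the 1390 entries that the tables hold together. The table for extracellular vesicles (EVs, membrane particles that cells release) of adipose tissue held 52 members among 1084 entries, and the hippocampus table held 55 among 1158, with 46 in both. Entries with the same count in every library were taken to share their reads and were kept once, which left 42 members in EVs and 53 in hippocampus. Of these, 42 and 51 had at least 1 count, and miR-669g and miR-669i were at 0 in all 6 hippocampus libraries. At low counts equal values do not show shared reads: in EVs the 5 identical entries that include miR-297a-5p had 3 counts each in total.

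Small RNA was sequenced from EVs of adipose tissue and from hippocampus of male C57BL/6J mice of genotype WT kept for 12 weeks on chow or on HFD, a high-fat diet. Each sample type had 3 libraries of each diet, all from RNA taken up in Trizol, and the labels give the tissue of the hippocampus libraries as brain. Whether the libraries of a group are different animals is not stated in the labels, and p-values here describe the spread among the sequenced samples, part of it perhaps technical. Neuronal markers fixed as a list (miR-124-3p, miR-9-5p, miR-128-3p, miR-138-5p and miR-218-5p) summed to 266071 to 445204 CPM (counts scaled to a common library total) in hippocampus and to 2023 to 3009 CPM in EVs, and the fat tissue list (miR-148a-3p, miR-143-3p, miR-193a-3p and miR-378a-3p) summed in EVs to 320667 to 826751 CPM with chow and 204198 to 258205 with HFD. Libraries held between 1825488 and 5941955 counts in EVs, 2331091 and 5723918 in hippocampus with chow, and 11143775 and 12874600 with HFD, so depth went with diet in hippocampus.

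Sfmbt2 encodes a Polycomb-group protein and is imprinted in the mouse, with expression from the paternal allele in extraembryonic tissue. Its intron carries a rodent-specific array of microRNA hairpins that arose by repeated duplication, and the array is known mostly from placenta and embryonic stem cells. The mature arms are often rich in UG or CA repeats, and members of 1 family can differ at a few bases, so a short read may match several of them. In mouse, miR-467 has also been studied as a repressor of thrombospondin-1 under high glucose.

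The annotation placed 81 hairpin genes of the 4 families on the mouse genome (GRCm38), and 71 of them lay within Sfmbt2, on the + strand of chr2:10370510-10595253. All 71 were intronic. They spanned 51617 bases of a single intron (intron 10 in 1 annotated transcript and 11 in another), from 10466663 to 10518279, with a median gap of 209 bases between neighbours. The miR-466, miR-467 and miR-669 hairpins recurred at a median spacing of 2.42, 2.45 and 2.42 kb along the intron, as the map of hairpins shows. By symbol, 51 of the 61 entries had hairpins only in Sfmbt2, 3 (the miR-466f entries) had them there and elsewhere, and 5 had them only elsewhere. The 2 arms of miR-466a matched no hairpin of that symbol. A hairpin named Mir466, with no letter, lies in the intron (chr2:10507918-10507990) and was not matched to them. miR-467a had 10 hairpin copies, miR-669a 12 and miR-466b 8, whereas miR-669c (chr2:10509296-10509404), miR-467e (chr2:10505721-10505807) and miR-466d (chr2:10511967-10512062) had 1 each.

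**Figure D1:**
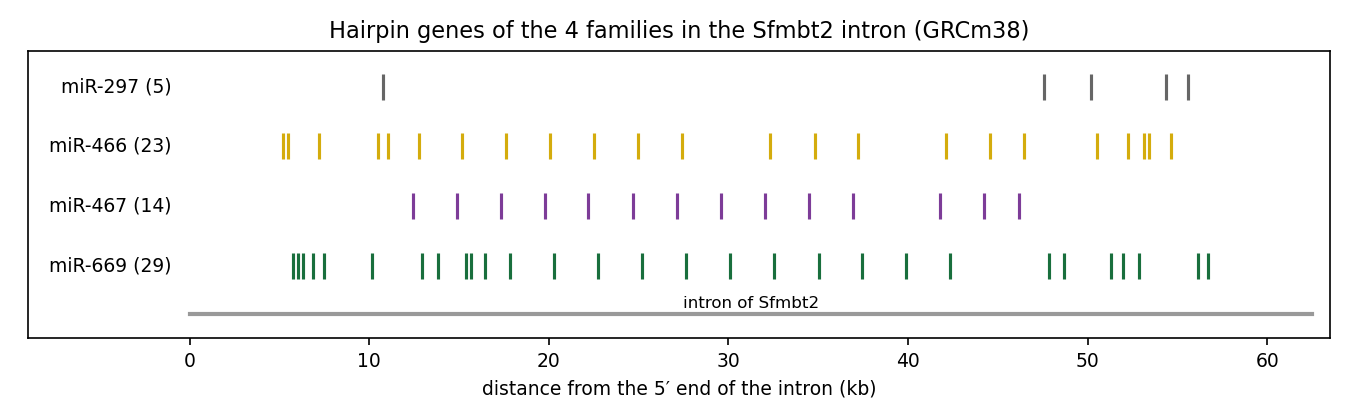
Hairpin genes of the 4 families along the Sfmbt2 intron, plotted by distance from its 5′ end in kb (GRCm38); each tick is 1 hairpin and the number of hairpins stands beside each family. The 14 miR-467 hairpins lie between 12.5 and 46.2 kb, and the 29 miR-669 hairpins between 5.76 and 56.7 kb.

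RefSeq mature sequences (GRCm38.p6) were at hand for 4 of the 61 members, all encoded outside Sfmbt2 on the + strand, and they are shown for the repeat character of the miR-466 family and for how their seeds differ. miR-466q lies at chr3:28419988-28420007, miR-466k at chr3:85467396-85467418, miR-466j at chr10:60960802-60960824 and miR-466i-3p at chr13:17747552-17747573. The sequences run 5′ to 3′ and capitals mark the seed (bases 2 to 8).
miR-466q: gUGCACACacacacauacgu
miR-466k: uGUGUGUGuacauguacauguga
miR-466j: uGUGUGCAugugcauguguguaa
miR-466i-3p: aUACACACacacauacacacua

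The 4 seeds differed from each other, and no other entry of the tables with a RefSeq sequence shared any of them. The letters UGUGUG were in miR-466k and miR-466j, against 1.67% of 1674 distinct mouse mature sequences (searched on the RNA strand as given). ACACAC was in miR-466q and miR-466i-3p, against 0.657% of them. All 4 were rare in the libraries. miR-466q had an entry in the hippocampus table alone, with 9, 7 and 0 counts in chow and 14, 15 and 24 in HFD, miR-466i-3p had there 5, 4 and 1 counts with chow and 3, 6 and 6 with HFD, and miR-466k had at most 2 counts in any library. The 5 members of at least 10 CPM in EVs and the 2 in hippocampus were all encoded in Sfmbt2.

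In total the members were a small share of the small RNA. Summed over all members, they took 215 ± 103 CPM of the library total (SD, n = 3) in chow EVs, 264 ± 40.4 in HFD EVs, 347 ± 28.2 in chow hippocampus and 278 ± 94.0 in HFD hippocampus. The libraries were at 125, 191 and 328 CPM in chow EVs, 249, 310 and 233 in HFD EVs, and in hippocampus at 371, 316 and 353 with chow and 171, 347 and 316 with HFD. On these shares, only HFD EVs and chow hippocampus did not overlap. The shares are not TMM-scaled (by a factor for library composition), unlike the levels of single members. The TMM factors ran from 0.708 (chow library 3) to 1.18 (HFD library 2) in EVs. In hippocampus they ran from 0.755 (chow library 3) to 1.13 (HFD library 2). The order and overlap of the groups may differ on that scale. In EVs 5 of 42 members had a mean of at least 10 CPM and 18 were under 1 CPM. In hippocampus 2 of 53 had at least 10 CPM and 30 were under 1 CPM.

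A different member led in each sample type. In EVs miR-669c-5p, the 5′ arm of the single miR-669c hairpin, took 43.2% of all member counts (38.4 to 51.6% over the 6 libraries), followed by miR-669a-3p with 9.29%, miR-467a-5p with 7.55%, miR-669a-5p with 5.45% and miR-467e-5p with 5.37%. In hippocampus miR-467a-5p, the 5′ arm of the 10-copy miR-467a, took 74.9% (70.7 to 77.4%), and miR-669c-5p was next with 3.34%. The entry miR-467b-5p had the same counts as miR-467a-5p in all 12 libraries, so these reads cannot be assigned to either. By family, again as CPM of the library total, miR-669 held 133 ± 56.5 in chow EVs and 172 ± 12.4 in HFD EVs. In hippocampus it held 29.0 ± 4.11 with chow and 29.0 ± 11.5 with HFD. The miR-467 family held 38.3 ± 19.0 (chow) and 52.6 ± 27.8 (HFD) in EVs against 276 ± 16.5 and 221 ± 73.4 in hippocampus. The group means of the miR-466 family lay between 24.3 and 36.9 CPM and those of miR-297 between 3.48 and 6.50.

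**Figure D2:**
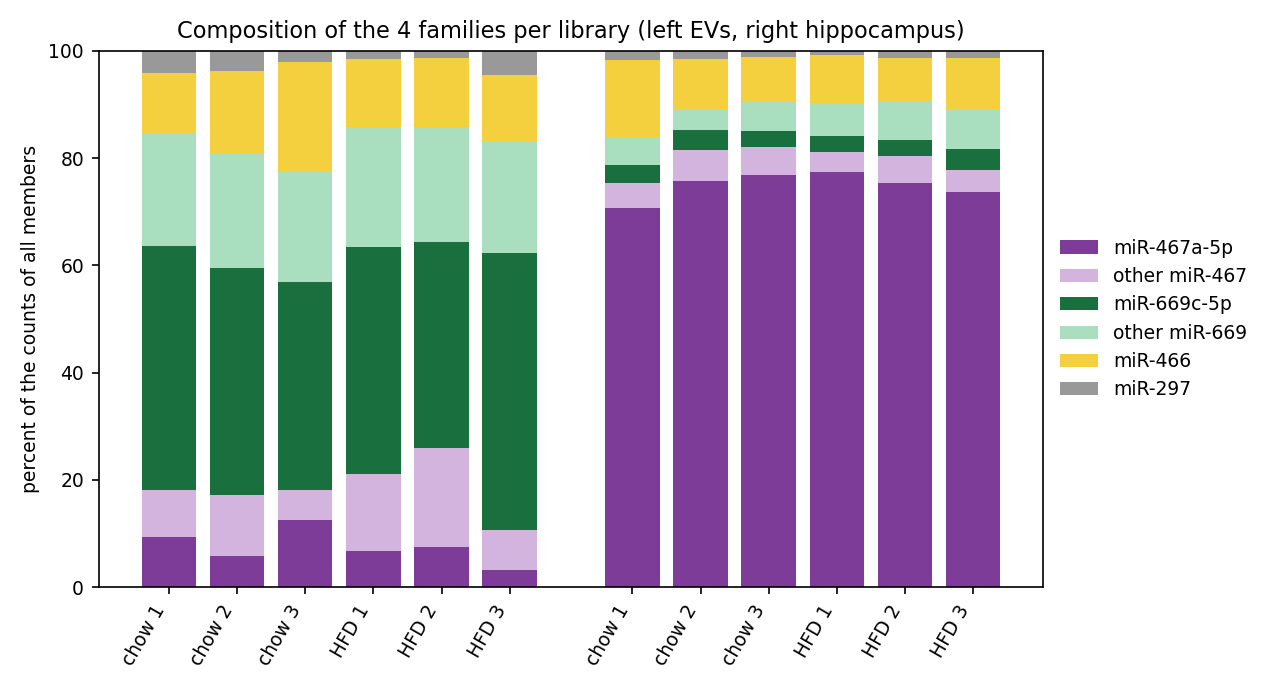
Percent of the counts of all members (identical entries once) taken by miR-467a-5p, other miR-467, miR-669c-5p, other miR-669, miR-466 and miR-297, 1 bar per library, EVs on the left and hippocampus on the right. miR-467a-5p takes 70.7 to 77.4% in each hippocampus library and at most 12.5% in EVs.

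The ratio of miR-467a-5p to miR-669c-5p reads within a library is not changed by library scaling. In EVs it came to 0.206, 0.139 and 0.322 with chow and to 0.162, 0.194 and 0.0633 with HFD. In hippocampus it was 20.7, 20.1 and 26.3 with chow and 26.2, 24.7 and 18.7 with HFD. Every hippocampus library lay far above every EV library, by 106-fold between the geometric means with chow and 183-fold with HFD, and the diets overlapped within each sample type. In an exact two-sided permutation test 3 libraries against 3 cannot go below p = 0.1, which both differences between sample types reached (0.24 after Benjamini-Hochberg adjustment over 12 ratio comparisons).

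The balance of the hairpin arms of miR-467a also lay apart between the sample types. miR-467a gave 37.1, 25.8 and 63.1 reads of its 5′ arm per read of its 3′ arm in hippocampus with chow and 60.7, 46.2 and 67.0 with HFD, but 13.5, 2.27 and 7.25 in EVs with chow and 2.24, 3 and 3 with HFD. All 6 EV libraries lay below all 6 hippocampus libraries, again with p = 0.1, the smallest the exact permutation test can give with 3 against 3. The 3′ arm had few reads in EVs, only 2 in chow library 1, and the miR-467d-3p entry repeated its counts. For miR-669a the reads of the 3′ arm per read of the 5′ arm averaged 1.70 ± 0.186 in EVs and 1.77 ± 0.377 in hippocampus with chow, which overlapped. With HFD they averaged 1.73 ± 0.173 and 1.31 ± 0.137, which did not overlap (p = 0.1, the smallest the exact permutation test can give). In the miR-466 family the 5′ arms took 12.3 to 41.7% of the reads with a named arm in EVs and 45.9 to 62.9% in hippocampus, without overlap. In miR-669 they took 80.4 to 86.1% in EVs and 70.0 to 75.9% in hippocampus, also without overlap. Such family shares follow which members are abundant, so they do not give the arm balance of a hairpin. In EVs miR-669c-5p alone had 131, 180 and 270 reads with chow and 625, 217 and 237 with HFD. Its 3′ arm had 1 read over all EV libraries.

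EVs and hippocampus were then compared in a fit of all 12 libraries over the entries that both tables hold, where 14 of 44 members passed the filter on low counts. With chow, 5 of the 14 were called at an adjusted p under 0.05, 4 higher and 1 lower in EVs, and with HFD 10 were called, 8 higher and 2 lower. The background was high. Of all 517 entries, 79.5% were called with chow (37.3% higher, 42.2% lower) and 81.8% with HFD (39.5% higher, 42.4% lower). The members' shares called in either direction were below these, whereas 8 of 14 higher with HFD was above the background for that direction. The 8 count miR-466a-3p and miR-466b-3p separately, though these are largely the same reads. They also include miR-467e-5p, which was at 0 in HFD hippocampus. The median log2 difference of the 14 members was 0.93 with chow and 1.87 with HFD, against -0.17 and 0.10 over all entries. EVs and hippocampus come from different tables, so sample type cannot be told apart from how each table was made. Within hippocampus, a bulk tissue, fewer cells of a type and less RNA per cell cannot be told apart either. The EV libraries do not tell which cells released the EVs.

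The 4 members called higher in EVs with chow were all miR-669 entries, and they were called higher with HFD as well. miR-669c-5p was at 68.2, 90.0 and 179 CPM in EVs with chow and 125, 124 and 136 with HFD, and in hippocampus at 8.63, 9.62 and 9.86 with chow and 4.92, 9.29 and 10.6 with HFD (CPM scaled over all 12 libraries). No EV library came near a hippocampus library, and the log2 difference was 3.58 with chow (SE 0.43, adjusted p = 4.25e-06, edgeR quasi-likelihood test) and 3.95 with HFD (SE 0.44, adjusted p = 1.35e-06). miR-669a-3p averaged 24.8 ± 13.7 CPM in chow EVs against 4.99 ± 1.37 in chow hippocampus, and 27.5 ± 5.21 against 5.21 ± 2.11 with HFD, log2 differences of 2.34 and 2.40. Its other arm, miR-669a-5p, rose by 2.33 and 1.96 and miR-669o-5p by 2.59 and 2.92 on the same scale. miR-669o-5p lost its call with chow without chow EV library 3 (1.46, adjusted p = 0.0720), the highest chow EV library for each of the miR-669 members named here.

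miR-467a-5p went the other way. In hippocampus its level was 178, 194 and 259 CPM with chow and 129, 229 and 199 with HFD, against 14.1, 12.5 and 57.7 (chow) and 20.2, 24 and 8.61 (HFD) in EVs. The sample types did not overlap, chow EV library 3 being the nearest, and the log2 difference was -2.92 with chow (SE 0.57, adjusted p = 0.000323, edgeR quasi-likelihood test) and -3.39 with HFD (SE 0.58, adjusted p = 9.45e-05). Its 3′ arm did not pass the test in either diet, with log2 differences of -0.24 and 1.03.

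Some miR-466 members passed the test with HFD alone; whether their diet effects differ was a separate test, given at the end. With HFD, miR-466a-3p, miR-466b-3p and miR-466d-3p were higher in EVs by 1.94, 1.85 and 1.73 on the log2 scale and miR-466c-5p was lower by a log2 difference of -1.53. miR-466c-5p lost this call without HFD EV library 2 or HFD hippocampus library 2 or 3 (adjusted p up to 0.0697, edgeR quasi-likelihood test), and miR-466d-3p with no filter (0.0705). With chow the same 4 had differences of 0.99, 0.996, 0.85 and -1.09 and did not pass. miR-466a-3p and miR-466b-3p had the same counts in all 3 HFD EV libraries and nearly so in chow, so they are largely the same reads. miR-467e-5p was at 0 in all HFD hippocampus libraries and at 18, 28.1 and 13.8 CPM in HFD EVs, at least 258-fold higher (against a floor of 3 counts over the group).

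**Figure D3:**
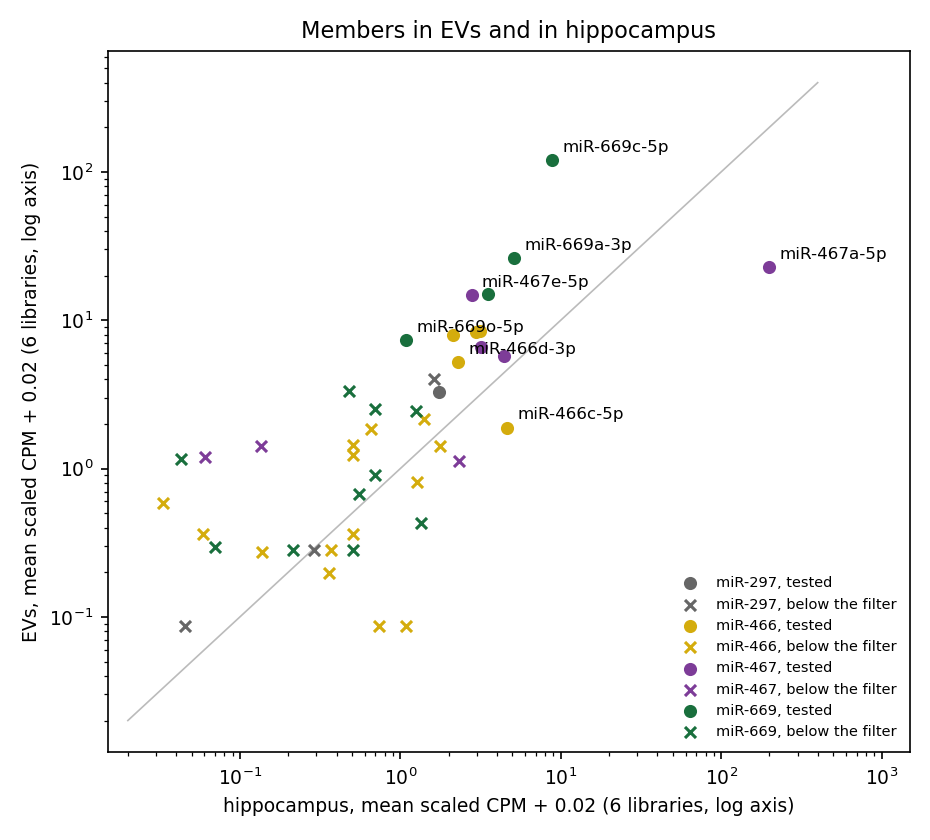
Mean level of the 44 shared members in EVs (vertical axis, 6 libraries) against hippocampus (horizontal axis, 6 libraries), in CPM scaled over all 12 libraries with a small offset, both axes log; circles passed the filter, crosses did not, and the line marks equal levels. miR-669c-5p averages 120 CPM in EVs and 8.83 in hippocampus, and miR-467a-5p 22.9 and 198.

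**Figure D4:**
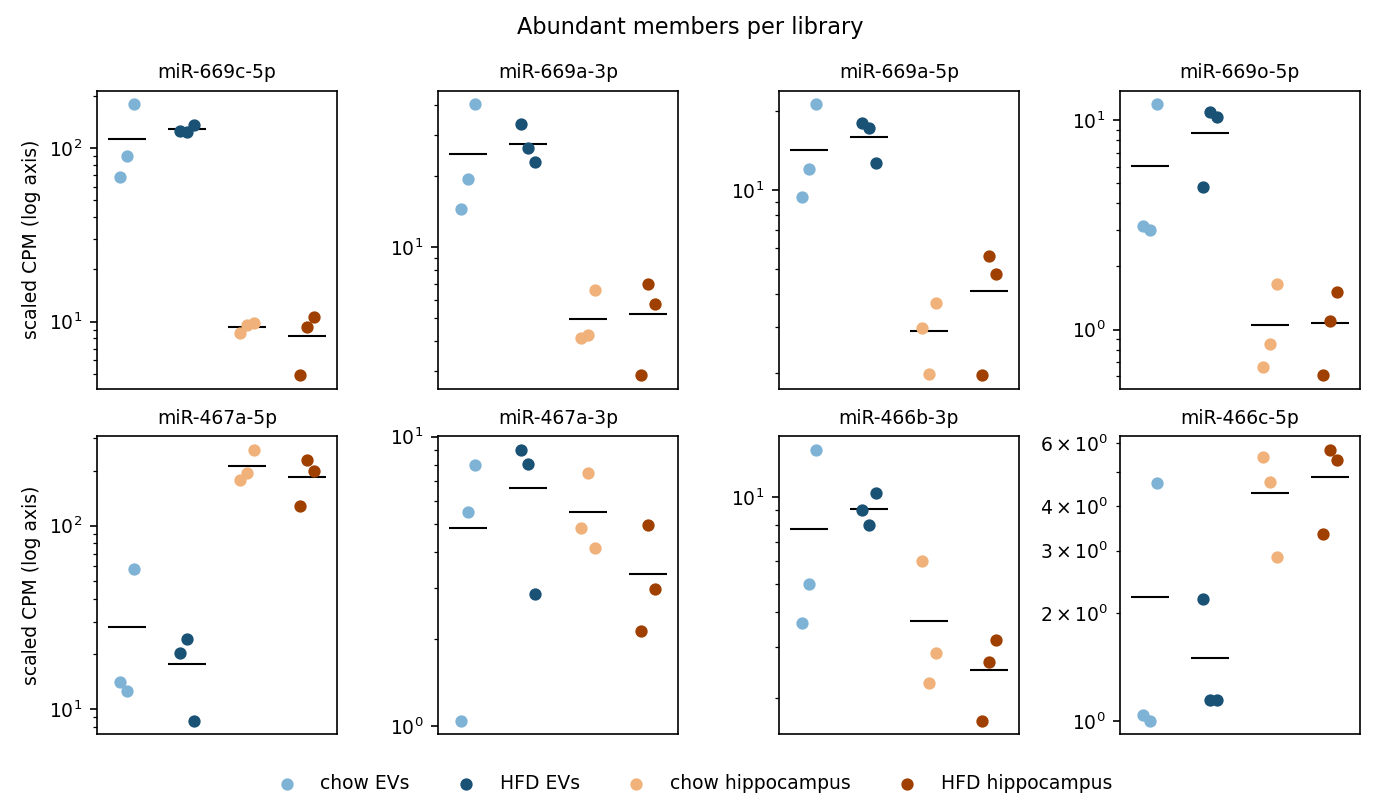
CPM scaled over all 12 libraries (log axes) of 8 abundant members, 1 point per library with the group mean as a bar. The 4 miR-669 entries are higher in EVs, miR-467a-5p is higher in hippocampus, and chow EV library 3 is the highest chow EV library in each panel.

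Other small RNAs also differed between EVs and hippocampus. Epithelial markers (miR-200a-3p, miR-200b-3p, miR-200c-3p and miR-203-3p) summed to 11534 to 24431 CPM in EVs and 114 to 411 in hippocampus, and a list of 8 X-linked microRNAs of testis and epididymis summed to 237 to 1819 CPM in EVs and to at most 1.37 in hippocampus, where 3 of the 8 had no entry. A list of pluripotent and trophoblast microRNAs, the cells in which the array is best known, summed to at most 3.28 CPM in any library. Of the 10 on that list, only 5 had an entry in EVs and 2 in hippocampus. The part of these cell types in the levels of the members was not tested. MicroRNAs outside the 4 families whose mature sequence holds UGUGUGUG were also higher in EVs in 3 of 3 tested cases with each diet. Of all entries, 37.3% were called higher with chow and 39.5% with HFD, and 3 entries are too few to set against that. Among the 3 were miR-574-5p (57.2 ± 48.1 CPM in chow EVs, 3.56 ± 1.61 in chow hippocampus, each table scaled on its own) and miR-672-5p (107 ± 25.7 and 11 ± 3.97). No other entry of the tables was hosted by Sfmbt2.

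Diet was compared within each sample type. In EVs 10 of 42 members passed the filter, and 0 of them were called by the edgeR quasi-likelihood test, against 6.2% of all 387 entries tested. None had an unadjusted p under 0.05, and DESeq2 and limma-voom called 0 as well. The median log2 change of the 10 was 0.01, against -0.12 over all entries. Of the 10, 5 lay above 0 and 5 below, where 43.9% of all entries lay above 0. The groups did not overlap for 1 of the 10, against 33.1% of all entries.

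That member was miR-467e-5p, the 5′ arm of the single miR-467e hairpin. Its level was 6.24, 9.17 and 10.7 CPM with chow and 14.0, 22.9 and 11.3 with HFD (EV libraries scaled on their own). The HFD libraries were all above the chow libraries, by a narrow margin at HFD library 3, and the change of 0.88 on the log2 scale (SE 0.42) did not pass (adjusted p = 0.241, edgeR quasi-likelihood test). miR-669c-5p was at 62.8, 71.8 and 180 CPM with chow and 97.1, 101 and 111 with HFD. The HFD libraries lay between the chow libraries, and the group means of 105 ± 65.2 and 103 ± 7.22 CPM gave a log2 change of -0.02 (SE 0.44).

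Chow EV library 3 set the spread among the other abundant members as well. miR-467a-5p was at 13.0, 9.97 and 58.0 CPM with chow and 15.7, 19.6 and 7.04 with HFD, a log2 change of -0.91 (SE 0.74, adjusted p = 0.496, edgeR quasi-likelihood test), which became 0.42 without that library. miR-466i-5p, whose hairpin lies on chromosome 13, was at 2.40, 3.19 and 25.3 CPM with chow and 6.06, 5.6 and 0.938 with HFD, and its change of -1.17 became 0.73 without it. The remaining 6 members tested had changes between -0.06 and 0.33. Marker lists lay apart between the diets in EVs. Leukocyte markers summed to 736 to 1192 CPM with chow and 2550 to 6543 with HFD, and the fat tissue list given at the start was lower with HFD. The endothelial marker miR-126a-3p was at 2346 to 2487 CPM with chow and 925 to 968 with HFD, and miR-122-5p of liver at 248 to 328 and 103 to 139. Their part in the members' values was not tested.

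In hippocampus 22 of 53 members passed the filter, and 2 were called, both lower with HFD. Of all 550 entries tested, 11.8% were called in either direction and 7.45% lower, so the members' share of 2 in 22 was near the background. The groups did not overlap for 7 of 22, against 36.9% of all entries, and all 7 were lower with HFD: both arms of miR-297b, both arms of miR-467a, miR-466d-3p, miR-467e-5p and miR-669c-5p. This depended on the scaling. Scaled over all 12 libraries, only miR-466d-3p and miR-467e-5p stayed apart, and the others of the 7 overlapped between diets. For all entries without overlap, the share lower with HFD was not counted. Of the 22, 16 had a log2 change below 0 and 6 above, where 44.2% of all 550 entries lay above 0. The median of the 22 was -0.37, against -0.12 over all entries. HFD library 1 was the lowest of the 3 for each of those 7 members other than miR-467e-5p. Its summed member share of 171 CPM stood below the 347 and 316 of the other HFD libraries. Several marker lists were lower with HFD too. Red cell markers summed to 246 to 637 CPM with chow and 78.8 to 159 with HFD. The liver marker miR-122-5p was at 8.76 to 52.2 and 2.46 to 3.30, and the fat tissue list at 34113 to 46603 and 19398 to 23814. The endothelial marker miR-126a-3p went the other way, at 3841 to 4883 CPM with chow and 4953.5 to 5211 with HFD. The neuronal list overlapped between diets. The part of these markers in the members' values was not tested.

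miR-467e-5p had 23, 29 and 21 counts in chow hippocampus, or 5.05, 5.08 and 11.9 CPM, and 0 in each HFD library. Chow and HFD were thus fully apart even though the HFD libraries were the deeper ones, where 3 counts correspond to 0.233 to 0.269 CPM. The level was at least 78.1-fold lower with HFD, against a floor of 3 counts over the group (adjusted p = 0.00482, edgeR quasi-likelihood test). The call stood in each of the 16 alternatives that tested this entry, with adjusted p between 7.11e-10 and 0.0331.

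The 2 near relatives miR-467c-5p and miR-467d-5p, looked at after these values were seen, did not follow. miR-467c-5p had 4, 13 and 10 counts with chow and 23, 74 and 68 with HFD, and miR-467d-5p had 11, 8 and 3 with chow and 28, 56 and 46 with HFD, or log2 changes of 0.74 (SE 0.67) and 0.86 (SE 0.43) that did not pass. Of the reads of these 3 entries together, miR-467e-5p took 60.5, 58.0 and 61.8% in chow hippocampus and 56.5 to 82.8% in the 6 EV libraries. In HFD hippocampus it took 0 of 51, 0 of 130 and 0 of 114, which allows shares of up to 5.88, 2.31 and 2.63% (counting error only). The 3 entries summed to 12.1 ± 6.23 CPM with chow and 7.59 ± 3.11 with HFD, and these sums overlapped.

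miR-466n-5p showed the same pattern at lower counts and did not pass the filter. It had 6, 3 and 7 counts in chow hippocampus and 0 in each HFD library, at least 17.1-fold lower against the same floor. miR-466d-5p had the identical 6, 3 and 7 counts with chow but 5, 10 and 13 with HFD. The chow reads of these 2 entries therefore cannot be told apart, and with HFD reads were listed under 1 of them alone. Among hippocampus entries with at least 10 counts in chow, 2 of 26 members were at 0 in all HFD libraries, against 0.993% (6 of 604) of all entries. The other way, 11 of 723 entries with at least 10 counts in HFD were at 0 in all of the shallower chow libraries, and 0 of 34 members. miR-466f, miR-466i-3p and miR-466p-5p had identical counts of 3, 6 and 6 with HFD but differed with chow. A further 5 entries of the hippocampus table, none a member, were blank in the HFD columns alone. Whether reads of the diets were assigned to the same list of microRNAs was not tested.

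miR-466d-3p, the other called member, was at 5.26, 3.5 and 3.98 CPM with chow and 0.824, 1.91 and 1.30 with HFD. Every HFD library lay below every chow library, and the mean went from 4.25 ± 0.911 to 1.34 ± 0.543 CPM, a log2 change of -1.65 (SE 0.42, adjusted p = 0.0410, edgeR quasi-likelihood test). The call was lost in 10 of 16 alternatives, among them the replicate block (adjusted p = 0.0931) and leaving out chow library 1 or 2 or any HFD library (adjusted p up to 0.220), and the direction held in all 16.

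The most abundant member did not pass the test. miR-467a-5p was at 236, 240 and 359 CPM with chow and 140, 231 and 208 with HFD, so the groups did not overlap but HFD library 2 came close to chow library 1. Scaled over all 12 libraries, the groups overlapped for this member. Its log2 change was -0.52 (SE 0.27, adjusted p = 0.234, edgeR quasi-likelihood test). miR-467a-3p was at 6.36, 9.28 and 5.69 CPM with chow and 2.31, 5.01 and 3.10 with HFD, a log2 change of -1.06 (adjusted p = 0.122), and miR-669c-5p at 11.4, 11.9 and 13.6 and 5.36, 9.38 and 11.1, a log2 change of -0.50 (adjusted p = 0.324). The arms of miR-297b averaged 2.63 ± 0.680 (5′) and 2.60 ± 0.418 CPM (3′) with chow and 1.28 ± 0.682 and 1.49 ± 0.838 with HFD, and neither passed. miR-466c-5p, the most abundant miR-466 entry in hippocampus, overlapped between diets at 5.67 ± 1.63 and 5.02 ± 1.21 CPM.

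**Figure D5:**
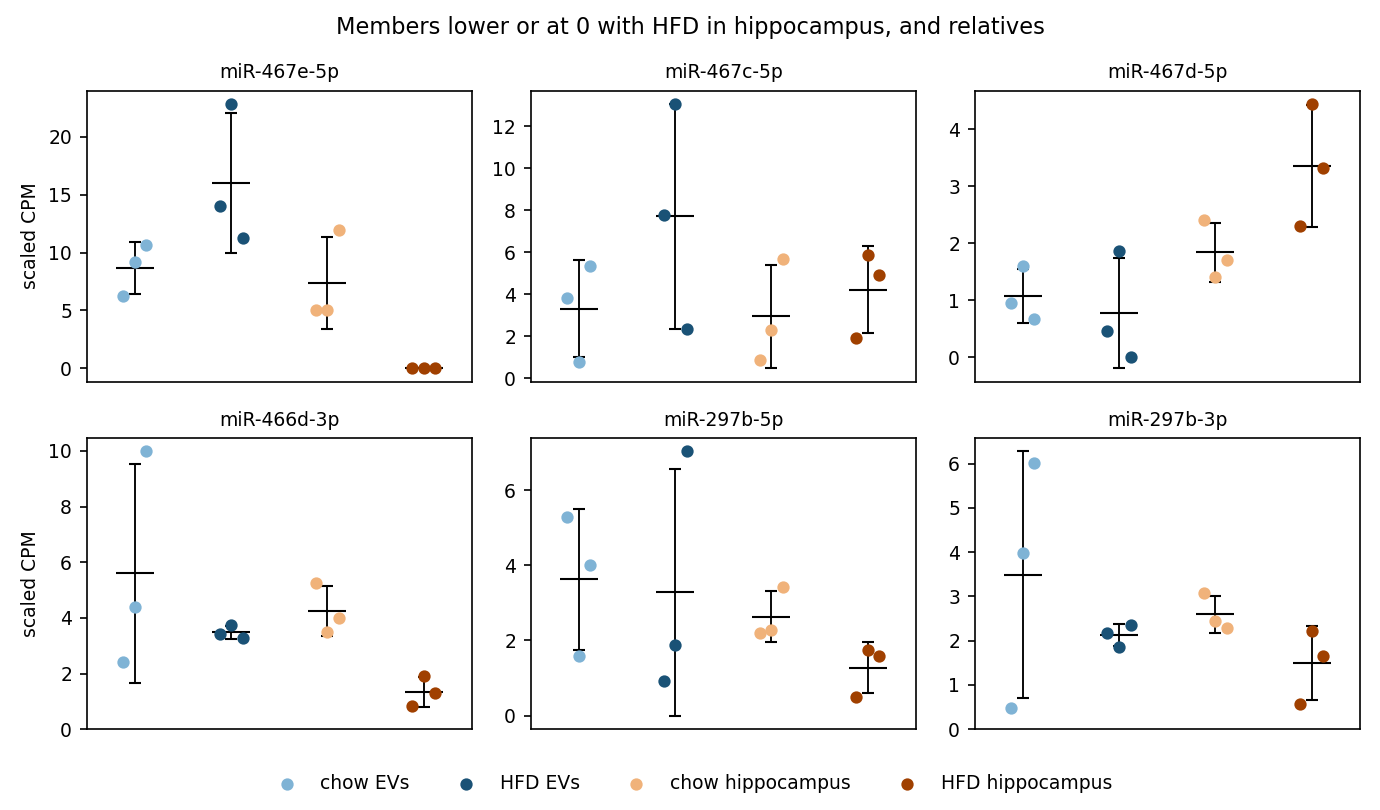
Scaled CPM of miR-467e-5p, its relatives miR-467c-5p and miR-467d-5p, miR-466d-3p and both arms of miR-297b, 1 point per library, with the mean and SD of 3 libraries; EVs and hippocampus were each scaled on their own. miR-467e-5p is at 0 in HFD hippocampus, where miR-467c-5p averages 4.23 and miR-467d-5p 3.36 CPM.

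The diet effects in EVs and hippocampus were set against each other in the fit of 12 libraries. Of 14 members, 1 was called, against 7.35% of all 517 entries, and it was miR-467e-5p (adjusted p = 0.000311, edgeR quasi-likelihood test). Its mean in EVs was 9.63 ± 2.51 CPM with chow and 19.9 ± 7.34 with HFD, and in hippocampus 5.52 ± 2.70 and 0. The diet change in EVs did not itself pass the test, and the size of the difference is not given because it depends on the 0. The other 13 had a median difference of 0.33 and did not pass, among them miR-466d-3p (0.88, adjusted p = 0.448), so a call in hippocampus alone does not show that miR-466d-3p responded differently in EVs.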

How the data were processed

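Small RNA libraries were made and sequenced by Novogene, per the series' design text. Per the file headers, the deposited tables give 1 column for each library, and their values are whole-number read counts per mature microRNA that the authors did not normalise. The submitters' processing notes name Bowtie. For the genome build, the microRNA annotation, the counter and any read filter, the version and settings are not given in the sources. The hippocampus columns headed LFD were taken as the chow libraries, which is an inference. A further hippocampus column, headed HFD, matched no sample and was not used, so the HFD hippocampus values leave it out. From hippocampus, 5 entries blank for HFD were left out.

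Members were all entries of the 4 families, and entries with identical counts in every library of a table were kept once, under the first name. The members and lists were chosen with earlier results of these data known. Counts were tested with edgeR 4.0.16 in R 4.3.3 (filterByExpr, TMM scaling, robust quasi-likelihood F test, two-sided, Benjamini-Hochberg adjustment over all entries tested) with calls made below an adjusted p of 0.05. Diet was compared within the 6 libraries of a sample type. The contrasts of EVs with hippocampus, and of the diet effects, came from a fit of 12 libraries over shared entries. Levels of single members and sums of marker lists are TMM-scaled CPM, and group values are mean ± SD of 3 libraries. Summed and family shares of the members are CPM of the library total, without TMM scaling. The floor for a group at 0 is 3 counts over the group, and such floors cover counting error only, because no molecular identifiers separate molecules from PCR copies. Members named were those called, the 6 most abundant per sample type, up to 2 per family and sample type, those at 0 in 1 diet with at least 10 counts in the other, the 5 largest called differences each way between sample types, and their other arms. miR-466a-3p, miR-466f, miR-466p-5p, miR-467c-5p and miR-467d-5p were added after their values were seen. The alternatives were library totals or DESeq2 size factors, no filter, DESeq2 1.42.0, limma-voom (limma 3.58.1), no robust fitting, near-identical entries once or all kept, a replicate block, thinning to equal depth, the fit of 12 libraries and leaving out each library. The fits were tested on simulated data. Hairpin positions and sequences came from GENCODE and RefSeq for GRCm38.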

Additional observations from a re-analysis of the deposited data

Results flagged for a closer look

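miR-467e-5p stood out because its diet effects in EVs and hippocampus differed by a test of the difference itself (adjusted p = 0.000311, edgeR quasi-likelihood test over 12 libraries). It had 13, 23 and 16 counts in chow EVs, 90, 49 and 24 in HFD EVs and 23, 29 and 21 in chow hippocampus, and 0 in all 3 HFD hippocampus libraries. The 0 fell in the 3 deepest libraries, and reads of miR-467c-5p and miR-467d-5p were present in each of them. Whether reads were assigned in the same way in both diets was not tested.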

How the results depend on the processing

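The call of miR-467e-5p in hippocampus, and that of the difference of its diet effects, stood in each alternative in which it passed the filter, whereas the call of miR-466d-3p was lost in 10 of 16. Members called in the hippocampus diet comparison fell from 2 to 1 with library totals, 1 with DESeq2 size factors, 1 with the replicate block and 1 in the fit of 12 libraries, and to 0 after thinning to the shallowest library, where 7 members passed the filter and both called members fell below it. Leaving out 1 library gave 1 to 2. With no filter 11 members were called for EVs against hippocampus with chow and 17 with HFD, of 44 tested, and leaving out 1 library gave 5 to 8 with chow. The summed member share was 421 (chow EVs), 346 (HFD EVs) and 455 (chow hippocampus) CPM of the counts outside the most abundant entry, and 611 (chow) and 490 (HFD) in hippocampus with identical entries counted each time. The background in EVs of 24 entries called became 0 when library 1 or 2 of either diet was left out, 56 with no filter and 9 with the replicate block. In hippocampus 65 became 8 without HFD library 1, 9 without HFD library 3, 126 without chow library 3 and 36 with the replicate block. Library totals moved the median log2 change of all EV entries from -0.12 to 0.16.

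The labels state no pairing by replicate number, and 3 libraries per group are too few to settle whether there is one. In their deviations from the group means, same-numbered libraries of the diets correlated at 0.0089, -0.18 and -0.19 in EVs. In hippocampus they correlated at 0.060, -0.40 and 0.092. No correlation was taken between same-numbered EV and hippocampus libraries. The block changed no call of a member other than that of miR-466d-3p.

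Log2 values that had not passed the test changed sign as follows, and the cause was not tested. In the EV diet comparison, miR-466b-3p went from 0.046 to -0.047 (thinning). miR-669a-3p went from -0.058 to 0.33 (totals), 0.16 (no filter), 0.17 (limma-voom), 0.11 (the replicate block) and 0.17 (the fit of 12). miR-669a-5p went from -0.021 to 0.35 (totals), 0.0047 (DESeq2 size factors), 0.19 (no filter), 0.0097 (DESeq2), 0.16 (limma-voom), 0.078 (the replicate block) and 0.19 (the fit of 12). miR-669c-5p went from -0.021 to 0.38 (totals), 0.012 (DESeq2 size factors), 0.20 (no filter), 0.013 (DESeq2), 0.14 (limma-voom), 0.15 (the replicate block) and 0.19 (the fit of 12). In the hippocampus diet comparison, miR-466c-5p went from -0.22 to 0.027 (thinning) and 0.11 (the fit of 12). miR-669a-3p went from -0.23 to 0.10 (the fit of 12). miR-669o-5p went from -0.12 to 0.037 (totals), 0.042 (no filter) and 0.19 (the fit of 12). For the difference of diet effects, miR-297b-3p went from 0.0065 to -0.15 (DESeq2 size factors), -0.081 (no filter) and -0.16 (DESeq2). miR-466i-5p went from 0.11 to -0.11 (DESeq2 size factors) and -0.28 (DESeq2). miR-669a-3p went from 0.065 to -0.079 (DESeq2 size factors) and -0.080 (DESeq2). Leaving out each library in turn gave these ranges of the log2 value. In EVs they were -0.28 to 1.07 for miR-466b-3p, -1.62 to 0.73 for miR-466i-5p, -0.053 to 1.04 for miR-467a-3p, -1.32 to 0.42 for miR-467a-5p, -0.29 to 0.70 for miR-669a-3p, -0.23 to 0.59 for miR-669a-5p, -0.25 to 0.70 for miR-669c-5p and -0.11 to 1.46 for miR-669o-5p. In hippocampus they were -0.23 to 0.13 for miR-466b-5p, -0.30 to 0.10 for miR-466c-5p, -0.35 to 0.10 for miR-669a-3p and -0.23 to 0.27 for miR-669o-5p. For the difference they were -0.46 to 0.43 for miR-297b-3p, -0.76 to 0.58 for miR-466c-5p, -0.23 to 1.75 for miR-466i-5p, -0.71 to 0.61 for miR-467a-5p, -0.16 to 0.59 for miR-669a-3p, -0.57 to 0.078 for miR-669a-5p and -0.042 to 1.18 for miR-669o-5p. For EVs against hippocampus with chow they were -0.024 to 1.44 for miR-466b-3p and -0.065 to 1.92 for miR-466i-5p.

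Depth limits the rare members: 32 of 42 in EVs and 31 of 53 in hippocampus were below the filter, and 3 counts correspond to as much as 1.64 CPM in an EV library and 1.29 in a hippocampus library.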
